A study of Mus musculus with 13 samples.

Results

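Open chromatin found with 5000 cells was compared with open chromatin found with 10000 cells in the second experiment of a low-input ATAC protocol. The members were the peaks of 2 deposited lists, 18637 peaks from 5000 cells and 29870 peaks from 10000 cells, which make 48507 of the 279669 intervals in the 8 per-library ATAC lists of the series. A 10000-cell peak was called kept where a 5000-cell peak overlapped it by at least 1 bp and lost where none did. A 5000-cell peak with no such partner was called 5000-cell-only. Both libraries came from E14 cells, an embryonic stem cell line of 129/Ola mice, with no edited allele and no treatment named in the labels. The cells grew in medium with 15% fetal bovine serum and leukemia inhibitory factor (LIF), the cytokine that holds them in the pluripotent state. In the low-input protocol the transposase Tn5 cut open chromatin in permeabilized cells, and mRNA was then taken from the same lysate on oligo-dT beads, so each ATAC list has an mRNA library from the same cells. The 6 further ATAC lists were used for comparison, namely low-input lists of 10000 and 20000 cells from experiment 1 and of 20000 cells from experiment 2, and 3 lists of Omni-ATAC, the benchmark protocol, from 5000, 10000 and 50000 cells. There was 1 list a side and therefore no replicate error, so every difference here is a description and no test was run.

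ATAC-seq reads out where Tn5 can insert adapters into DNA, which happens mostly where nucleosomes are absent or loosely held. In embryonic stem cells such sites lie at active promoters and at enhancers bound by pluripotency factors such as Oct4 (the product of Pou5f1), Sox2 and Klf4. A peak is a stretch in which the cuts pass a caller's threshold, so its width depends on how many cuts were sequenced as well as on the chromatin.

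Promoters show the kinds of outcome most plainly, and 6 are printed for that reason, each as the 250 bases before the start site, 5′ to 3′ on the gene's strand, from the RefSeq promoter table of GRCm38.p6 (mm10). Capitals mark bases inside a peak of the list named. Klf2, a transcription factor of the naive pluripotent state, had the same peak in both lists. Id2, an inhibitor of helix-loop-helix factors that responds to BMP signals, kept a narrower peak. Mgat1 and Crip2 had wide peaks at 10000 cells and none at 5000, and Rpl41, a ribosomal protein gene, lost a peak of 9 bp. Eif4a3, a subunit of the exon junction complex, had a peak with 5000 cells only.
Klf2, chr8:72318812-72319061, plus strand, peak of both lists: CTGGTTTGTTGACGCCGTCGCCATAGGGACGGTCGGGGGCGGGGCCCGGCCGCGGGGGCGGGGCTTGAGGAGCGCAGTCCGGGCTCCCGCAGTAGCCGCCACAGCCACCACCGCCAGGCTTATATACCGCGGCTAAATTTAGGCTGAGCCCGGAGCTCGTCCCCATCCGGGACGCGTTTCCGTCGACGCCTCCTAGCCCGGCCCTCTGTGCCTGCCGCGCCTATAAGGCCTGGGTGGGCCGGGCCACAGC
Id2, chr12:25096093-25096342, minus strand, 10000-cell peak: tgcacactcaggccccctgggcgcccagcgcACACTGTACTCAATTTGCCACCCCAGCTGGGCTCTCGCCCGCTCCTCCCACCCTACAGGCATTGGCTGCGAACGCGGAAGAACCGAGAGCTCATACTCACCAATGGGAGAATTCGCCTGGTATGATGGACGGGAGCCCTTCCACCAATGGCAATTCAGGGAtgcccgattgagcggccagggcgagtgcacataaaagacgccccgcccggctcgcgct
Id2, the same bases, 5000-cell peak: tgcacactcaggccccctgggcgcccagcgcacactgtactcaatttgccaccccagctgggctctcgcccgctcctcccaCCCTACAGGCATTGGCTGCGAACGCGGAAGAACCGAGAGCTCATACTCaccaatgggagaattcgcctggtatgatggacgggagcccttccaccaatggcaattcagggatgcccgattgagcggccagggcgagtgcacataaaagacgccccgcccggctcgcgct
Mgat1, chr11:49243941-49244190, plus strand, 10000-cell peak: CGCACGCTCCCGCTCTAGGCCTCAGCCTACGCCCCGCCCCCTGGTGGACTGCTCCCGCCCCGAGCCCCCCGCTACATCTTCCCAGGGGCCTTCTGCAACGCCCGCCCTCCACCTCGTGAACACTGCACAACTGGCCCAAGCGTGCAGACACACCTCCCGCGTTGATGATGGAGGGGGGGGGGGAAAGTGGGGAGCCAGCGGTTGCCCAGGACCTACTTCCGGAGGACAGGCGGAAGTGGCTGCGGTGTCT
Crip2, chr12:113139986-113140235, plus strand, 10000-cell peak: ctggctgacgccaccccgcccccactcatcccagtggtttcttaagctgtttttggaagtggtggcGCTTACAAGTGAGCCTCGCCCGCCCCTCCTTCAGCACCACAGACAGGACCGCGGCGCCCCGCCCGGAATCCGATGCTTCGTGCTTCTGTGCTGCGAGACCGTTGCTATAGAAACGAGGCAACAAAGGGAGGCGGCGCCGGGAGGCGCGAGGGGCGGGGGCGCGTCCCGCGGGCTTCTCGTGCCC
Rpl41, chr10:128549169-128549418, minus strand, 10000-cell peak: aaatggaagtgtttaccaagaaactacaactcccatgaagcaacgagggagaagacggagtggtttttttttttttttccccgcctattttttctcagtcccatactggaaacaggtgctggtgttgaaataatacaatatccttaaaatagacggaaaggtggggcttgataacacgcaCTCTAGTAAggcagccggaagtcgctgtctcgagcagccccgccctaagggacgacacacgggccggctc
Eif4a3, chr11:119300044-119300293, minus strand, 5000-cell peak: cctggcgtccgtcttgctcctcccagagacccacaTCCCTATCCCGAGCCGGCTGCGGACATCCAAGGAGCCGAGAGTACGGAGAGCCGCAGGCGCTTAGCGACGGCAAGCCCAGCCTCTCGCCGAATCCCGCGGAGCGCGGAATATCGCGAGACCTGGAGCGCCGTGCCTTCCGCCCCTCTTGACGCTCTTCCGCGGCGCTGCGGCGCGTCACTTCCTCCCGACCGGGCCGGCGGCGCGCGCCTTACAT
In these windows the Klf2 peak covered all 250 bases in both lists, whereas the Id2 peaks covered 161 bases with 10000 cells and 48 bases with 5000. The Mgat1 peak covered the whole window and the Crip2 peak 184 bases of it. The Eif4a3 peak covered 215 bases.

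The 2 mRNA libraries held 16762472 counts (5000 cells) and 15506892 counts (10000 cells), within the range of 13727122 to 20426252 over the 5 mRNA libraries, so that a count of 0 allows up to 0.179 and 0.193 CPM, the count scaled to the library total. The read depth of the ATAC libraries was not given in the sources used here, so cell number and sequencing depth cannot be told apart. The cells carried their defining markers: all 24 pluripotency genes of the list used were detected in both libraries, with summed levels of 6807 and 6988 CPM. The 15 fibroblast markers, a check for feeder cells, summed to 24.9 and 25.5 CPM. Among them Col3a1, Col5a2, Lum and Acta2 were at 0 in both libraries, and 6 of the 15 reached a mean of 1 CPM. Of those 6, Fbln1 (4.45 CPM at 10000 and 7.04 CPM at 5000 cells) had a kept promoter peak and Col5a1 (3.93 and 1.91 CPM) a lost one. Lists for differentiated cells were also summed, at 5000 and 10000 cells. Primitive endoderm genes came to 92.9 and 108.7 CPM, and trophoblast and epithelium genes to 68.5 and 68.3 CPM. Early neural genes came to 11.5 and 16.7 CPM and mesendoderm genes to 5.13 and 5.93 CPM. Whether some cells had differentiated was not tested.

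More of the 10000-cell peaks were lost than kept with 5000 cells. Of 29870 peaks, 13335 were kept, which is 44.6% (95% Wilson interval 44.1% to 45.2%, counting error only, with neighbouring peaks not independent). The other 16535 peaks, a background of 55.4%, were lost. From the other side, 13658 of the 18637 peaks with 5000 cells, or 73.3% (72.6% to 73.9%), overlapped a 10000-cell peak, and 4979 were 5000-cell-only. The 5000-cell list covered 1.40 Mb with a median width of 14 bp, and the 10000-cell list covered 2.84 Mb with a median width of 20 bp.

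A list of 10000 cells from experiment 1 lacked a similar share. The list of experiment 1, with 18877 peaks close in length to the 5000-cell list, held 44.3% (43.8% to 44.9%) of the same 10000-cell peaks. That list differs in day from both lists compared here, and the 2 comparisons share the 10000-cell list of experiment 2. Within experiment 2, the list of 10000 cells held 47.6% of the 49508 peaks of 20000 cells. In Omni-ATAC, the list of 5000 cells, with 9097 peaks, held 20.4% (19.9% to 20.8%) of the 31207 peaks of 10000 cells. Thus 10000 cells of another day, in a list about as short, lacked as many of these peaks as 5000 cells of the same day.

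With kept defined by an overlap of at least 1 bp, width separated kept from lost peaks more than any other property examined. Of the 11362 peaks of 9 bp, the shortest width in the lists, 15.6% were kept. The share was 35.9% at 10 to under 50 bp, 63.5% at 50 to under 200 bp and 88.6% at 200 to under 500 bp. Of the 467 peaks of 500 bp or more, 464 were kept, or 99.4% (98.1% to 99.8%). Kept peaks had a median width of 134 bp with quartiles of 30 and 245 bp. Lost peaks had a median of 9 bp, and 58.0% of them were 9 bp wide. A wide peak offers more bases to overlap than a narrow one, so part of the rise with width is built into the definition. With 500 bp around each midpoint searched instead, kept and lost peaks differed by 104 bp in median width, against 125 bp here. The step with width was as steep when the peaks were looked for in the 10000-cell list of experiment 1, at 16.0%, 36.4%, 62.2%, 87.6% and 98.1% over the same classes. In Omni-ATAC the shares were lower at each width, from 5.36% at 9 bp to 84.1% at 500 bp or more.

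**Figure D1:**
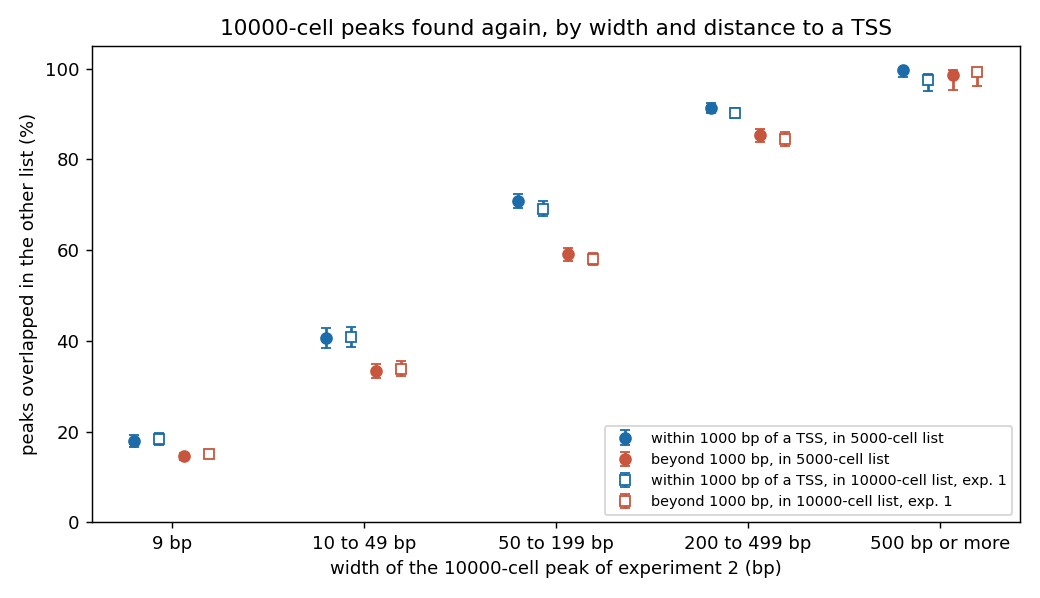
Share of the 10000-cell peaks of experiment 2 (%) overlapped in the 5000-cell list (filled circles) and in the 10000-cell list of experiment 1 (open squares), by peak width in bp and by distance to the nearest transcription start site; bars are 95% Wilson intervals. Shares climb from 15.6% at 9 bp to 99.4% at 500 bp or more in the 5000-cell list, and peaks near a start site lie above the others at widths under 500 bp.

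Peaks near promoters were kept more often than those elsewhere. The start site (TSS) is the 5′ end that the count table gives for a gene. Within 1000 bp of a TSS, 6106 of 11112 peaks were kept, 54.9% (54.0% to 55.9%). Beyond 1000 bp it was 7229 of 18758 peaks, 38.5% (37.8% to 39.2%). Past the first 1000 bp the share changed little with distance, at 40.0% between 1000 and 10000 bp, 37.6% between 10000 and 100000 bp and 39.2% farther out. As a result promoter peaks made up 45.8% of kept peaks and 30.3% of lost ones.

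Part of this difference went with width, since kept promoter peaks had a median of 167 bp and kept distal peaks one of 111 bp. Within a width class the gap was smaller. At 9 bp, 17.95% of promoter peaks and 14.6% of distal peaks were kept. The gap was widest at 50 to under 200 bp, at 70.9% against 59.0%, and it was 91.4% against 85.3% at 200 to under 500 bp. At 500 bp or more the values were 99.7% and 98.6%, with intervals that overlap. In experiment 1's list of 10000 cells, 54.3% of the promoter peaks and 38.5% of the distal peaks were found, again close to the shares with 5000 cells. The Omni-ATAC pair had the same order at a lower level, 30.4% near promoters and 14.6% beyond.

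The kept share peaked just upstream of the start site. Of 2136 peaks with a midpoint 250 to 100 bp upstream, 69.2% (67.3% to 71.2%) were kept, and of 3145 peaks in the last 100 bp before the TSS, 65.7%. It was 54.3% in the first 100 bp of the gene and 32.1% (29.5% to 34.8%) from 250 to 500 bp downstream, below the distal share. The median width followed the same course, 147 bp at 250 to 100 bp upstream and 9 bp from 250 bp downstream on. Among peaks of 50 to under 200 bp only, the span along the promoter was narrower, from 74.1% upstream to 56.8% (111 peaks) at 100 to 250 bp downstream.

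**Figure D2:**
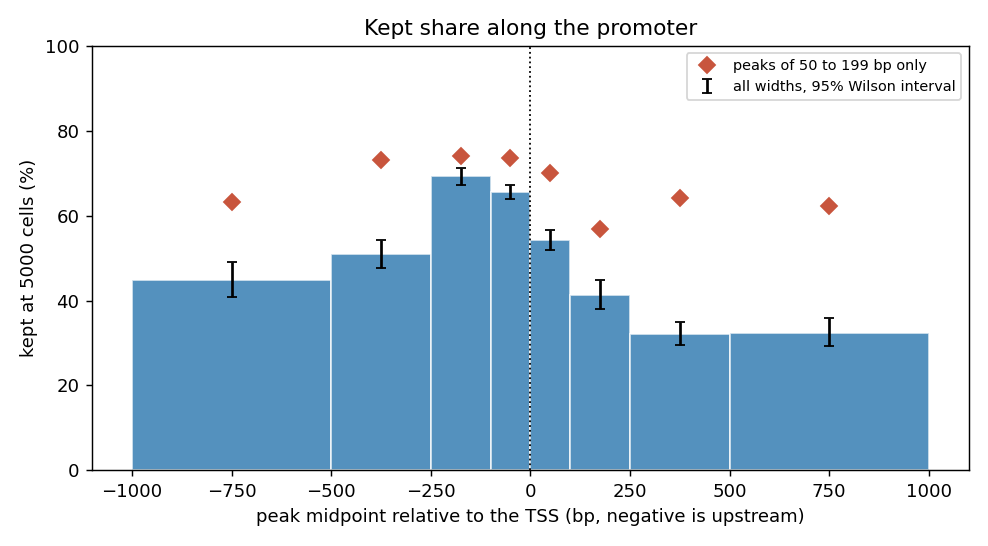
Share of 10000-cell peaks kept at 5000 cells (%), by the position of the peak's midpoint relative to the TSS in bp; bars hold all widths with 95% Wilson intervals and diamonds hold peaks of 50 to under 200 bp only. The bars are highest, at 69.2%, from 250 to 100 bp upstream and lowest, at 32.1%, from 250 to 500 bp downstream, while the diamonds span a narrower range.

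Promoter peaks of more strongly expressed genes were kept more often. Levels were read in the 10000-cell mRNA library from the same cells. Within 1000 bp of a TSS, 43.1% (40.9% to 45.3%) of peaks were kept where the nearest gene was under 1 CPM, 52.6% at 1 to under 10 CPM, 59.6% at 10 to under 100 CPM and 62.9% (60.2% to 65.5%) at 100 CPM or more. The nearest gene of a kept promoter peak had a median of 13.9 CPM and that of a lost one 7.87 CPM. The order remained within most widths: at 50 to under 200 bp the shares ran 63.0%, 70.8%, 72.3% and 77.6% with rising CPM, and at 9 bp 13.7%, 17.5%, 20.1% and 21.1%. At 10 to under 50 bp the lowest of the 4 classes by expression was not the lowest by share, at 38.0% against 36.3% for 1 to under 10 CPM.

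Beyond 1000 bp the nearest gene's expression made little difference. The share ran from 37.3% under 1 CPM to 41.0% at 100 CPM or more. At 50 to under 200 bp it was 57.6%, 59.1%, 61.1% and 58.8%, with no steady order. Median levels of the nearest gene were 2.90 CPM for kept distal peaks and 2.58 CPM for lost ones. The nearest gene is a label by position, and a distal peak need not act on it.

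**Figure D3:**
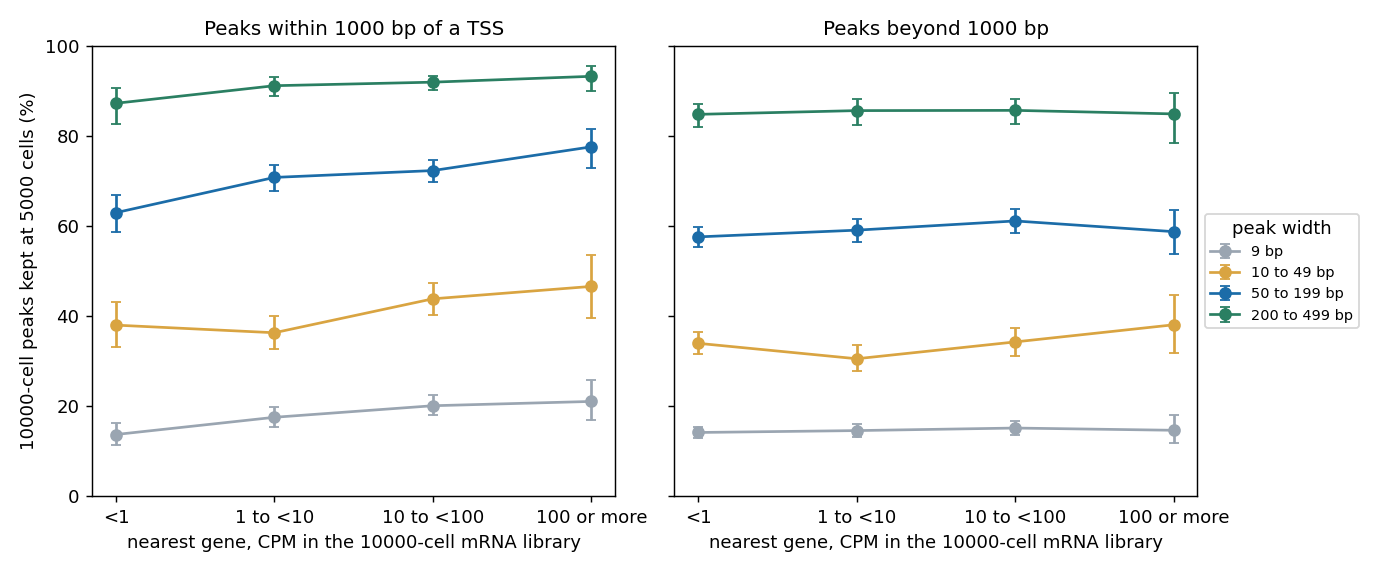
Share of 10000-cell peaks kept at 5000 cells (%), by the nearest gene's level in CPM and by peak width in bp, for peaks within 1000 bp of a TSS (left) and beyond (right); bars are 95% Wilson intervals. At 50 to under 200 bp the share goes from 63.0% to 77.6% with CPM near promoters and stays between 57.6% and 61.1% beyond.

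The class of the nearest gene and the surroundings of a peak were examined as well. Within 1000 bp of a TSS, 55.3% of peaks at protein-coding genes were kept, 49.4% (44.7% to 54.2%) of 423 peaks at genes of long noncoding RNAs and 49.4% (39.3% to 59.6%) of 89 peaks at miRNA genes. Beyond 1000 bp the shares were 38.2%, 36.9% and 42.2% for the same classes. At transcribed pseudogenes 38.8% (26.4% to 52.8%) of 49 peaks were kept within 1000 bp and 55.1% (49.4% to 60.7%) of 292 beyond. Of those 292, 87 lay on the unplaced contig JH584304 near Pisd-ps3, of which 73 were kept. Without that contig, a split chosen after seeing the data, the shares were 37.5% (25.2% to 51.6%) of 48 and 42.9% (36.3% to 49.8%) of 205, with intervals that overlap. Peaks with 2 or more start sites within 1000 bp, such as bidirectional promoters, were kept in 62.6% of 1592 cases and those with 1 start site in 53.7% of 9520. Among 50 to under 200 bp peaks these shares were 71.7% and 70.7%, so that most of the gap was gone at equal width. Distal peaks inside gene bodies were kept in 36.5% of cases and those outside in 40.1%, and at 50 to under 200 bp in 58.3% and 59.6%. A 10000-cell peak with another such peak within 500 bp was kept in 47.5% of cases, against 43.8% without one. At 50 to under 200 bp the difference was larger, 71.7% against 61.2%.

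A kept peak was usually narrower at 5000 cells. Kept peaks covered 2.22 Mb at 10000 cells, of which 5000-cell peaks covered 51.3%. In kept peaks of 50 bp or more the median covered part was 44.4%. An edge at exactly the same base was shared by 5927 of the 13335 kept peaks, 44.4%, and both edges by 10.7%. Most of the both-edge matches, 1067 of 1433, were peaks of 9 bp, and among kept peaks of 50 bp or more 2.67% shared both edges. Of the 10000-cell peaks found in each other list, the share with an identical edge was 42.8% and 45.0% in the lists of 10000 and 20000 cells of experiment 1 and 37.9% in that of 20000 cells of experiment 2. In Omni-ATAC it was 31.9%, 38.9% and 18.1% in the lists of 5000, 10000 and 50000 cells. Of lost peaks, 20.9% had a 5000-cell peak within 500 bp without touching it, 34.3% near promoters and 15.0% beyond. Of 5000-cell-only peaks, 46.0% had a 10000-cell peak within 500 bp.

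Most lost peaks were found again in lists the comparison did not use. At least 1 of the 6 other lists held 91.7% (91.2% to 92.1%) of lost peaks and 99.7% of kept ones. The median number of lists was 2 for lost and 5 for kept peaks. The 20000-cell list of the same experiment held 69.7% of lost and 97.9% of kept peaks, and the Omni-ATAC list of 50000 cells 87.6% and 98.1%. In the short Omni-ATAC list of 5000 cells the shares were 6.68% and 42.3%. Among the 519 lost peaks of 200 bp or more, every one was found in at least 1 other list, 97.5% in the 20000-cell list of experiment 2 and 57.4% in the 10000-cell list of experiment 1. Among the 9592 lost peaks of 9 bp, 86.6% were in at least 1 other list.

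Over all widths, peaks seen with 5000 cells only were found again least often, which did not hold throughout at equal width. Of 4979 such peaks, 83.7% were 9 bp wide, and together they covered 0.0741 Mb. Of them, 86.4% (85.4% to 87.3%) were in at least 1 of the 6 lists, 60.9% in the 20000-cell list of experiment 2 and 14.7% in the 10000-cell list of experiment 1. The other 13.6% overlapped no peak of those 6 lists. Among peaks of 9 bp, 5000-cell-only and lost peaks were close: 56.3% and 55.8% were in the 20000-cell list of experiment 2, 12.5% and 11.6% in the 10000-cell list of experiment 1, and 84.5% and 86.6% in at least 1 list. The 32.7% of 5000-cell-only peaks of any width that lay near a TSS had a nearest gene of 8.06 CPM at the median, close to the 7.87 CPM of lost promoter peaks.

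**Figure D4:**
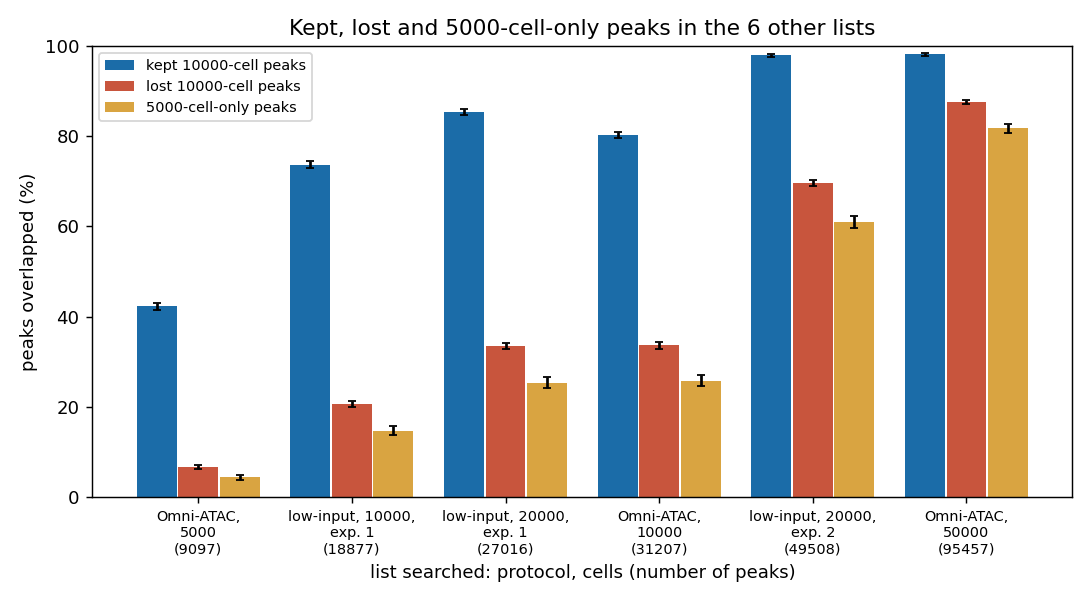
Share of kept and lost 10000-cell peaks and of 5000-cell-only peaks (%) that overlap a peak in each of the 6 other lists, ordered by the number of peaks in the list; bars carry 95% Wilson intervals. Over all widths, kept peaks are found most often and 5000-cell-only peaks least often in every list, from 42.3%, 6.68% and 4.42% in the shortest list to 98.1%, 87.6% and 81.7% in the longest.

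Read gene by gene, fewer promoters were lost than peaks. A gene was called kept where both lists had a peak within 1000 bp of its TSS, whether or not these overlapped, and lost where the 10000-cell list alone had one. Widths given below for a gene's promoter peak are those of its widest peak in that window. Of 9922 genes with such a peak at 10000 cells, 7088 were kept and 2834 lost, a background of 28.6% (27.7% to 29.5%). In 90.7% of kept genes at least 1 peak of each list overlapped. A further 529 genes had a promoter peak with 5000 cells only and 14019 genes had none in either list. Median levels in the 10000-cell mRNA library were 12.8 CPM for kept, 5.16 for lost, 4.19 for 5000-cell-only and 0.0645 CPM for genes without a peak. The lost share went from 42.7% under 1 CPM to 21.1% at 100 CPM or more, and, by the width of the gene's widest peak, from 64.0% at 9 bp to 0.258% at 500 bp or more, where Mgat1 was the 1 lost gene of 387. With 20000 cells in the same experiment, 91.7% of lost genes had a promoter peak.

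The pluripotency genes divided much like genes at large. Of 24 listed, 13 had a promoter peak at 10000 cells, and 4 of these were lost (30.8%, Wilson interval 12.7% to 57.6%, against the background of 28.6%). Klf2 had a peak of 280 bp in both lists and levels of 476.5 CPM at 10000 and 516.9 CPM at 5000 cells. Sox2 had 217 bp in both lists. Zfp42, which encodes the zinc finger protein Rex1 of naive cells, had 274 bp at 10000 and 269 bp at 5000 cells. These 3 promoters were as wide with 5000 cells as with 10000, or nearly so. Trim28, a corepressor that silences retroelements, was kept, though the widest peak near its TSS differed between the lists. That peak was 316 bp centred at 85 bp from the TSS at 10000 cells and 145 bp centred at -874 bp at 5000 cells. Klf5, a factor related to Klf2, went from 335 to 314 bp and Tbx3 from 449 to 341 bp. At Utf1, a chromatin-associated factor of embryonic stem cells, a peak of 189 bp gave way to one of 9 bp. At Pou5f1, the gene of Oct4, the peak centred at -992 bp from the TSS went from 191 to 9 bp.

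Klf4 and Dppa5a were the best expressed of the lost pluripotency genes. Klf4, a Krüppel-like factor and direct target of LIF signalling, had a peak of 299 bp centred at -400 bp from its TSS at 10000 cells and none within 1000 bp at 5000 cells. Its promoter had a peak in 5 of the 6 other lists, the exception being the 10000-cell list of experiment 1. Its mRNA was 83.7 CPM at 10000 and 71.1 CPM at 5000 cells. Dppa5a, an RNA-binding protein of pluripotent cells, lost a peak of 127 bp while its mRNA was 1652 and 1548 CPM. Sall4, a zinc finger factor, lost 14 bp, and Prdm14, a repressor of differentiation, lost 9 bp. The mRNA of the lost genes was thus at a similar level in both libraries. Nanog and Esrrb, also core factors, had no peak within 1000 bp of the TSS in either list at 228.5 and 82.2 CPM. Both were thus expressed without a called peak at the start site in the count table, and other start sites were not examined. None of the 24 genes differed 2-fold in mRNA on the log2(CPM + 1) scale. Dppa5a and Pou5f1 have near-identical copies elsewhere in the genome, and how reads shared with them were counted is not given in the sources used here.

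Genes of the signalling pathways active in these cells were kept in 16 of 21 cases. The 5 lost make 23.8% (10.63% to 45.1%), an interval that holds the 28.6% over all genes. Stat3, the transcription factor downstream of LIF, went from 505 to 416 bp, and Socs3, its feedback inhibitor, from 432 to 431 bp. The promoter peak of Lifr, the LIF receptor, was 11 bp at 10000 and 9 bp at 5000 cells. Dusp6, a phosphatase that restrains ERK, went from 247 to 239 bp. The inhibitors of the Id family differed: Id2 went from 161 to 48 bp, Id3 from 155 to 9 bp, and Id1 lost its 147 bp peak. Id1 mRNA was 174.3 CPM at 10000 and 144.2 CPM at 5000 cells. Spry2, an inhibitor of receptor tyrosine kinase signals, lost 124 bp, Tcf7l1, a repressor in the Wnt pathway, 107 bp, and Nodal, a ligand of the TGF-beta family, 14 bp. Among 25 chromatin regulators with a peak, 6 were lost (24.0%, near the 28.6% over all genes), including Eed, a Polycomb subunit, and Smarcb1, a SWI/SNF subunit, each with 9 bp. Smarca4, the ATPase of SWI/SNF, went from 179 to 9 bp.

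Housekeeping genes were lost in 53 of 229 cases (23.1%, 18.2% to 29.0%), an interval that holds the 28.6% over all genes. Differences among the lists were not tested, and their intervals are wide. DNA replication genes lost 2 of 21 (9.52%, 2.65% to 28.9%) and glycolysis genes 3 of 12 (25.0%, 8.89% to 53.2%). Mcm5, a subunit of the replicative helicase, had 403 bp at 10000 cells and a slightly wider peak at 5000 cells, while Mcm2 lost 35 bp. Respiratory chain genes lost 7 of 43 (16.3%), splicing genes 4 of 26 (15.4%), chaperones 3 of 19 (15.8%), translation initiation factors 5 of 26 (19.2%) and proteasome subunits 8 of 27 (29.6%). Each of these 5 intervals holds the 28.6% over all genes, as do those of replication and glycolysis. Cholesterol synthesis genes, a list outside the housekeeping class, lost 1 of 17 (5.88%, 1.05% to 27.0%), an interval that ends below 28.6%. Their promoter peaks had a median width of 245 bp. Over all genes whose widest promoter peak was 200 to under 500 bp, 6.38% were lost, so the list was near the share at that width. Psmc5, an ATPase of the proteasome, lost 304 bp and Cct5, a subunit of the chaperonin CCT, 144 bp.

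Ribosomal protein genes lost 21 of 55 promoter peaks (38.2%, 26.5% to 51.4%), an interval that holds the 28.6% over all genes. Their median level of 3566 CPM was the highest of the 24 lists. Rpl41 (13301 CPM at 10000 and 14611 CPM at 5000 cells) and Rps12 (13254 and 13810 CPM) each lost a peak of 9 bp. Rps10 lost 88 bp. Among those kept, Rps29 went from 534 to 188 bp and Rpl37 from 391 to 338 bp. Rps20 had 10 bp in both lists. Rpl7a had 14 bp with 5000 cells only. Ribosomal protein genes have many processed copies in the genome, and how reads shared with such copies were placed is not given in the sources used here.

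Lineage genes, with a median of 0.258 CPM at 10000 cells, mostly had no peak to lose. Not all were silent, since 27 of the 96 reached a mean of 1 CPM. Of 96 genes, 75 had none in either list, as against 14019 of all 24470 genes. Of the 16 with one at 10000 cells 9 were lost (56.3%, 33.2% to 76.9%), as against 28.6% over all genes. The median width of these peaks was 18 bp. Of the mesendoderm regulators, Mesp1, Foxa1 and Mixl1 each lost 9 bp and Tbx6 27 bp, whereas Eomes had 82 bp at 10000 and 9 bp at 5000 cells. Levels of these 5 genes at 10000 cells ran from 0.0645 CPM for Mixl1 to 2.64 CPM for Eomes. Other members of the class were better expressed at 10000 cells. Rpl10l of the germline list (74.9 CPM) lost 9 bp and Sparc of the primitive endoderm list (59.4 CPM) lost 66 bp. Lama1, also of the primitive endoderm list (44.2 CPM), went from 294 to 77 bp. Dazl, a germline gene at 3.03 CPM, lost 299 bp. Among 39 Hox genes, 34 had no peak, and the 3 with one at 10000 cells were kept, among them Hoxc13 with 297 and 283 bp and Hoxd10 with 9 bp in both lists. The 15 genes of the 2-cell stage that are in the table had no peak.

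**Figure D5:**
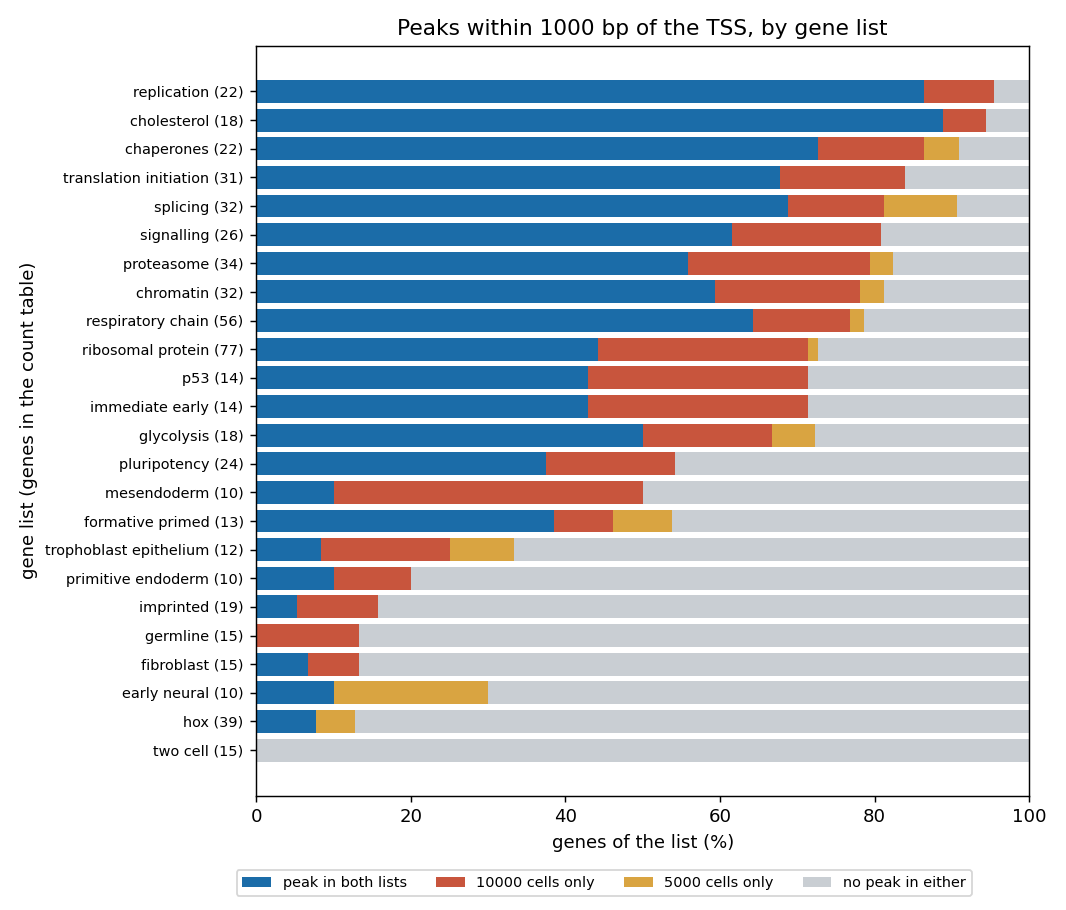
Genes of each list (%, with the number of genes in the count table in brackets) by whether a peak lay within 1000 bp of the TSS in both lists, in the 10000-cell list only, in the 5000-cell list only or in neither. Among genes with a 10000-cell peak, 2 of 21 replication, 1 of 17 cholesterol and 21 of 55 ribosomal protein genes were lost, beside 28.6% over all genes and with no test of the difference, and Hox and 2-cell genes mostly have no peak.

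The widest losses were few and were seen elsewhere in the series. Only 3 lost peaks reached 500 bp. The Mgat1 peak (chr11:49243792-49244418, 627 bp) spans the start site of the gene, which encodes a glycosyltransferase of N-glycan synthesis, and had its nearest 5000-cell peak 220363 bp away. All 6 other lists had a promoter peak there. Mgat1 mRNA was 4.90 CPM at 10000 cells (76 counts) and 2.80 CPM at 5000 cells (47 counts). A peak of 659 bp within the RefSeq gene Arl15 (chr13:113815785-113816443), 21277 bp from its TSS, had a 5000-cell peak of 9 bp at 88 bp distance. A peak of 534 bp within Lifr as RefSeq draws the gene (chr15:7115272-7115805) lay 13767 bp before the start site in the count table and had one of 9 bp at 306 bp. Lifr mRNA was 55.4 CPM at 10000 and 40.6 CPM at 5000 cells. Each of the last 2 was in 5 of the other lists.

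Other wide promoter peaks lost were those of Crip2 (495 bp, a LIM-domain protein, 91.1 CPM at 10000 and 127.1 CPM at 5000 cells) and Mycl (481 bp, a Myc family factor at 0.774 CPM). Cdkn2c, which encodes an inhibitor of cyclin-dependent kinases, lost 388 bp at 0.387 CPM. In the other direction, among genes with a promoter peak at 5000 cells only, the widest were at Tjp3 (420 bp), Saal1 (221 bp), Comp (218 bp), Eif4a3 (216 bp) and Cox7a2l (211 bp). Eif4a3 mRNA was 431.6 CPM at 10000 and 404.5 CPM at 5000 cells, and 3 of the other lists had a promoter peak there. The peaks at Tjp3 and Comp were centred at -1189 bp and 989 bp from the TSS, at the border of the window.

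Few genes differed 2-fold in mRNA between the libraries among those tested, whether their promoter peak was lost or kept. Of the 11386 genes whose mean reached 1 CPM, 357 (a background of 3.14%) were at least 2-fold lower at 5000 cells on the log2(CPM + 1) scale, and 131 (1.15%) at least 2-fold higher. Among 1975 lost genes the shares were 3.19% (2.501% to 4.060%) lower and 0.962% higher. Among 5981 kept genes they were 2.41% and 0.719%, and among 3074 genes without a peak, which are more weakly expressed, 4.49% and 2.15%. The median log2 difference (5000 minus 10000 cells) was -0.08 for lost genes, -0.07 for kept genes and -0.08 for all. The share lower among lost genes exceeded that among all genes by 0.0544 percentage points (-0.71 to 0.977, an interval that joins those of both shares as if they were independent, although all genes include the lost ones). With no minimum level the excess was 0.889 points (0.247 to 1.65), and with a pseudocount of 0.1 it was 0.728 points (-0.44 to 2.04). These shares compare 1 library with 1 library. Tead4, a trophoblast regulator, had the largest difference among the lost genes named here: its mRNA was higher at 5000 cells (143 counts against 32, log2 difference 1.64) where a 9 bp peak was lost. Eomes mRNA was lower (11 counts against 41, log2 difference -1.14) where the peak narrowed.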

How the data were processed

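The authors deposited 1 BED list of peaks for each ATAC library and 1 table of raw counts per gene with a column for each of the 5 mRNA libraries. A unified peak list of the whole series was not used here. The peak lists hold intervals only, with no height or score. The submitters' processing notes name cutadapt, Bowtie2 2.1.0, SAMtools 1.3.1, Picard, bedtools 2.24.0, MACS2 2.1.1, STAR 2.5, featureCounts, Subread 1.5.0-p1 and mm10, without saying which step each served. How the peaks were thresholded is not given in the sources used here, and neither is the ATAC depth.

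Peaks were intersected in Python 3.11.15 with numpy 2.4.6 and pandas 2.3.3, counting an overlap of at least 1 bp. Each peak was given its nearest start site, the 5′ end of a gene in the count table, and that gene's CPM, the count scaled to the library total. The total counts of the 2 mRNA libraries set their precision, with 3 counts taken as the limit that a count of 0 allows. mRNA differences used log2(CPM + 1), a mean of at least 1 CPM and a threshold of 2-fold. Wilson intervals (95%, scipy 1.17.1) cover counting error only. The overlap and distance steps were tested on simulated intervals. Of 24470 gene IDs, 24467 matched RefSeq, and 578 of 580 genes in 24 lists were found. Gene classes follow the RefSeq gene table.

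The members and the gene lists were chosen with earlier results of these data known. Named by rule were the pluripotency genes with a peak, up to 2 kept and 2 lost genes of highest CPM in each other list, the 5 genes of highest CPM, of widest peak and of widest peak under 1 CPM in each state, and the nearest genes of the 5 widest distal peaks in each state. Not every gene named by the rule is described. Nanog, Esrrb and further members of the lists were added, and others of the rule left out, after their values were seen, and the promoters shown were chosen likewise. Alternatives varied the overlap, the peak width, the length of the list, the promoter window, the CPM library and minimum, the pseudocount and the list compared. No gene on chromosome 18 was described.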

Additional observations from a re-analysis of the deposited data

How the results depend on the processing

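Of 49 alternative values, 21 moved by less than the counting interval of the main value, 28 moved further and 0 changed sign. The kept share of 44.6% became 42.5% when 50% of the shorter peak had to overlap, 56.2% when a peak within 500 bp counted, 45.2% with peaks of at least 50 bp only, 62.1% with the 10000-cell list cut to as many of its widest peaks as the 5000-cell list holds, and 54.1% with the 10000-cell list of experiment 1 in place of that of experiment 2. The 5000-cell peaks found at 10000 cells (73.3%) came to 69.9%, 85.6%, 87.4%, 64.0% and 54.8% under the same 5 settings, and the difference in median width (125 bp) to 129, 92, 104, 113 and 72 bp. The gap between promoter and distal peaks (16.4 percentage points) was 22.7 when a peak within 500 bp counted, 14.7 with the widest peaks, 19.1 with a promoter window of 500 bp and 15.0 with the widest window tried. The difference in promoter CPM (5.997) was 7.55 within 500 bp and 4.68 for genes of at least 1 CPM. Lost genes (28.6%) came to 41.7% with peaks of at least 50 bp only and 19.5% with the widest peaks. Lost peaks found in another list (91.7%) came to 91.0% with 50% overlap and 98.8% with peaks of at least 50 bp. A further 2 settings were chosen after seeing the data. With 500 bp around each midpoint the kept share was 51.1%, the gap 18.2 points and the width difference 104 bp. With the list of experiment 1 in place of the 5000-cell list none of the 5 values computed (kept share, gap, width, CPM and lost genes) moved beyond the interval. The excess of lower mRNA among lost genes (0.0544 points) came to 0.889 with no minimum level, 0.728 with a pseudocount of 0.1 and 0.00827 at a mean of at least 10 CPM. The cause of these shifts was not tested. No paired analysis was possible because there was 1 list a side and no test, and for the same reason no library could be left out. The unknown ATAC depth limits every share.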

Other observations

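The 5 widest kept distal peaks had nearly the same width at 5000 as at 10000 cells. A peak of 3923 bp at chr17:39842992-39846914 over Rn18s-rs5, a ribosomal RNA locus, was 3870 bp at 5000 cells with the same start. Its neighbour at chr17:39847124-39848719 was 1596 bp and 1592 bp. A peak at chr2:98666238-98667330, over no RefSeq gene, was 1093 bp and 1091 bp. The peaks over Gm10222 (chr1:24612473-24613494) and Gm24830 (chr3:96328103-96329087) were 1022 and 985 bp at 10000 cells and 1062 and 892 bp at 5000 cells. All 5 were in each of the 6 other lists. How reads that match several places in the genome were handled is not given in the sources used here, which limits what these widths mean. The unplaced contig JH584304, whose only gene in the count table is Pisd-ps3, kept 74 of 88 peaks (84.1%), although their median width was 16 bp, and the 5000-cell list had 98 peaks there. On chromosomes 1 to 19 the kept share ran from 42.3% to 49.04%, with chromosome 8 highest (1023 of 2086 peaks) and chromosome 12 next at 46.3%.

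Of 8 motifs searched in promoters, the CCAAT box had the largest gap between kept and lost genes and is described for that reason, chosen after its values were seen. It was searched as CCAAT and ATTGG, which are each other's reverse complement, in the 300 bases from 250 before to 50 after the RefSeq start (GRCm38.p6). RefSeq promoters within 1000 bp of the table's start site were matched for 80.6% of kept but only 75.4% of lost genes, so a check over the lost set is void and the values describe matched promoters only. The box was in 47.6% of 5713 kept promoters (46.3% to 48.9%), 31.5% of 2138 lost promoters (29.5% to 33.5%) and 39.2% of all 17878. Among genes whose widest promoter peak was 200 to under 500 bp, it was in 56.3% of 2190 kept and 31.7% of 139 lost promoters. At 10 to under 50 bp the shares were 35.9% and 33.9%. By level they were 42.0% and 36.3% under 1 CPM, with intervals that overlap (38.5% to 45.5% and 32.4% to 40.3%), 50.0% and 32.9% at 1 to under 10 CPM, 46.6% and 27.0% at 10 to under 100 CPM, and 51.8% and 27.9% at 100 CPM or more. Splitting the same 10000-cell promoters by presence in the 10000-cell list of experiment 1 gave 47.5% and 32.2%. Of the other motifs, the GC box (GGGCGG) was in 72.1% of kept and 66.7% of lost promoters, the ETS motif (CCGGAA) in 32.2% and 28.3%, the TATA box (TATAAA) in 5.39% and 8.23%, the E box (CACGTG) in 10.57% and 11.4%, the NRF1 motif (GCATGCGC) in 6.04% and 5.99%, the CRE (TGACGTCA) in 3.71% and 2.90% and the octamer (ATTTGCAT) in 1.63% and 1.22%, each on both strands. Over all promoters these 7 were in 46.9%, 19.2%, 13.1%, 8.22%, 3.70%, 2.42% and 1.71%. A match is a description of the letters, not of binding.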
